A study of Arabidopsis thaliana with 9 samples.

Results

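The genes described are LHCA1, LHCA2, LHCA3, LHCA4, LHCA5 and LHCA6, the nuclear genes for the light-harvesting antenna proteins of photosystem I in Arabidopsis thaliana. They were chosen by name and locus number, not by a cut on their values, but with earlier results of these data known. They are 6 of the 26984 named genes in the files. All 6 were found and all 6 passed the filter on low values. RNA was sequenced from whole seedlings of 7 days grown in short days and collected at zeitgeber time 20, which falls in the night. There were 3 genotypes with 3 libraries each: cop1-6, cor27cor28 and wild-type Col-0. COP1 is a ubiquitin ligase subunit that restrains light responses in the dark, and COR27 and COR28 are small nuclear proteins of the clock, light and cold responses. The labels give no lesion, transgene or added treatment for any genotype, and the growth conditions were shared by all 9 libraries. They do not say whether the 3 libraries of a genotype came from separate cultures, so p-values here measure the spread between these samples only.

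LHCA proteins bind chlorophyll and carotenoids and pass absorbed light energy to the photosystem I core. LHCA1 pairs with LHCA4 and LHCA2 with LHCA3, and these heterodimers form a crescent along one side of the core. LHCA3 and LHCA4 hold the chlorophylls that absorb furthest to the red. LHCA5 and LHCA6 are minor antenna proteins that link photosystem I to the chloroplast NADH dehydrogenase-like (NDH) complex, which takes part in cyclic electron flow. The proteins are made in the cytosol and imported into the chloroplast, and transcripts of the main antenna genes are known to follow light and the clock.

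In these seedlings, LHCA transcripts were lower in cor27cor28 than in wild type for LHCA1, LHCA2, LHCA3, LHCA4 and LHCA6, by 1.59-fold to 2.35-fold. In cop1-6 the members went separate ways: LHCA2, LHCA3 and LHCA4 were lower than in wild type, LHCA6 was higher, and LHCA1 and LHCA5 did not pass the test. The LHCA3 and LHCA4 calls in cop1-6 were lost when libraries were rescaled, and the LHCA2 and LHCA6 calls were kept under both rescalings.

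The values are FPKM, which divide a gene's fragments by its length and by the fragments mapped in the library, so levels are per length and can be set side by side between genes. The depth of the libraries is unknown, because no counts were among the files analysed. FPKM sums were 515929.5 to 532654.7 in cop1-6, 548054.6 to 562620.6 in cor27cor28 and 584877.5 to 612462.2 in wild type, and did not overlap between genotypes. In cop1-6 replicate 3, 185 genes were at least 2-fold above both other cop1-6 libraries, against 3 to 26 genes in each of the other 8 libraries, and without it the counts of called LHCA genes were the same. COR27 stood at 2.45 to 7.46 FPKM in cop1-6, 47.9 to 50.1 FPKM in the libraries labelled cor27cor28 and 12.5 to 17.4 FPKM in wild type. COR28 stood at 0.131 to 0.245 FPKM in cop1-6, 1.48 to 2.71 FPKM in the libraries labelled cor27cor28 and 1.92 to 3.08 FPKM in wild type. No source used here says where the lesions lie, so these transcripts do not check the cor27cor28 label, and COP1 was not analysed here. Every statement on cor27cor28 is about the libraries labelled cor27cor28.

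Sequences of the members were read from the TAIR10.1 assembly. LHCA1 (AT3G54890) lies on the minus strand at chr3:20339504-20341176, LHCA2 (AT3G61470) on the plus strand at chr3:22745514-22747444 and LHCA3 (AT1G61520) on the plus strand at chr1:22699715-22701412. LHCA4 (AT3G47470) lies on the minus strand at chr3:17493343-17495033, LHCA5 (AT1G45474) on the plus strand at chr1:17179250-17180806 and LHCA6 (AT1G19150) on the plus strand at chr1:6612630-6613972. LHCA1 to LHCA4 have 4 exons each in their longest coding model, LHCA5 has 5 and LHCA6 has 3, and coding lengths run over a narrow span of 726 bases in LHCA1 to 822 bases in LHCA3.

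The members are distinct enough in sequence to be told apart by reads. Coding identity between any pair was 58.9% to 66.3% of aligned bases, highest for LHCA1 and LHCA4, and the longest run shared by a pair was 20 bases. Of all 50-base stretches of their coding sequences, copies elsewhere in the nuclear genome were found for LHCA2 alone, where 78 of 725 occur in AT5G28450 on chromosome 5. AT5G28450 stood at 0 to 0.344 FPKM in the 9 libraries, far below LHCA2. LHCA4 overlaps AT3G47460 on the opposite strand by 53 bases and LHCA5 overlaps AT1G45545 on the opposite strand by 192 bases. AT3G47460 had 1.43 to 2.89 FPKM and AT1G45545 had 0 to 0.0371 FPKM. No source used here says whether the counting used strand.

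The sequence directly before the annotated gene start is shown for LHCA1, LHCA4 and LHCA5, because LHCA1 and LHCA4 encode the partners of a heterodimer and LHCA5 is a minor member whose transcript was the least changed in cor27cor28. Motifs were searched in the 300 bases before every gene, whether or not a neighbouring gene reaches into them. The printed sequence of LHCA1 stops after 180 bases at its neighbour. They are given 5′ to 3′ on the gene's strand, from chr3:20341177-20341356 for LHCA1, chr3:17495034-17495333 for LHCA4 and chr1:17178950-17179249 for LHCA5. Capitals mark matches on either strand to 4 motifs known from light- or clock-regulated plant promoters: the G-box CACGTG, the I-box GATAAG, the CCAAT-type box CCAATC and the evening element AAAATATCT.
LHCA1: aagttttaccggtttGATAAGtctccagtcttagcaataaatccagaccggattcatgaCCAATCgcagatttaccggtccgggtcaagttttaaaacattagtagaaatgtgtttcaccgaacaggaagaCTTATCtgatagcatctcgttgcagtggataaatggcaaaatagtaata
LHCA4: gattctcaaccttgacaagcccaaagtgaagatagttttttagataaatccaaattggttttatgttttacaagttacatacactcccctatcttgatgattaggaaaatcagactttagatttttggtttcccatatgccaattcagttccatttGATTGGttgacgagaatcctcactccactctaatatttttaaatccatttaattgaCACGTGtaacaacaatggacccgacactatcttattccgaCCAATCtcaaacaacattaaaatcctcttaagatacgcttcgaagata
LHCA5: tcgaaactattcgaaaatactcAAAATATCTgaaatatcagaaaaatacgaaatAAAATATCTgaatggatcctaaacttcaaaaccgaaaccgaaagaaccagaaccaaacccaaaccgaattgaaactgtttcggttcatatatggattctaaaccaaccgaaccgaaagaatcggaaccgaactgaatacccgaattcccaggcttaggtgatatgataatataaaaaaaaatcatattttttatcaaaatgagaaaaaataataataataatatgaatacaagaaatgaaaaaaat
Counted back from the gene start, LHCA1 holds the I-box at -165 to -160 and at -49 to -44 and CCAATC at -121 to -116. LHCA4 holds the G-box at -88 to -83 and CCAATC at -144 to -139 and at -48 to -43. LHCA5 holds the evening element at -278 to -270 and at -246 to -238. Among the other members, LHCA3 holds CCAATC at -35 to -30, and the 300 bases before LHCA2 and LHCA6 hold none of the 4. All but 20 of the bases searched before LHCA6 lie at or beyond the edge of its neighbouring gene. Of 27443 protein-coding genes, 7.09% hold the G-box in the 300 bases searched in the same way, 14.5% the I-box, 12.2% CCAATC and 2.79% the evening element. A match is a string of letters only, and no binding was measured.

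All 3 genotypes shared one order of transcript levels. LHCA2 was the most abundant member, followed by LHCA4, LHCA3, LHCA1, LHCA5 and LHCA6. LHCA2 ranked 28th among all genes by mean FPKM in cop1-6, 26th in cor27cor28 and 14th in wild type, and LHCA6 ranked 898th in cop1-6, 2339th in cor27cor28 and 1421st in wild type. Neighbours in this order overlapped between libraries in cop1-6 only, for LHCA3 with LHCA1 and for LHCA5 with LHCA6. The FPKM of the 6 genes summed to 3627 ± 222 in cop1-6, 2418 ± 38.1 in cor27cor28 and 4760.2 ± 244 in wild type (SD, n = 3 each). LHCA2 made up 37.1% of that sum in cop1-6, 46.8% in cor27cor28 and 43.4% in wild type. The share of LHCA1 was 14.1% in cop1-6, 9.29% in cor27cor28 and 10.6% in wild type. In a bulk sample of whole seedlings, fewer cells of a type and less RNA per cell cannot be told apart.

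**Figure D1:**
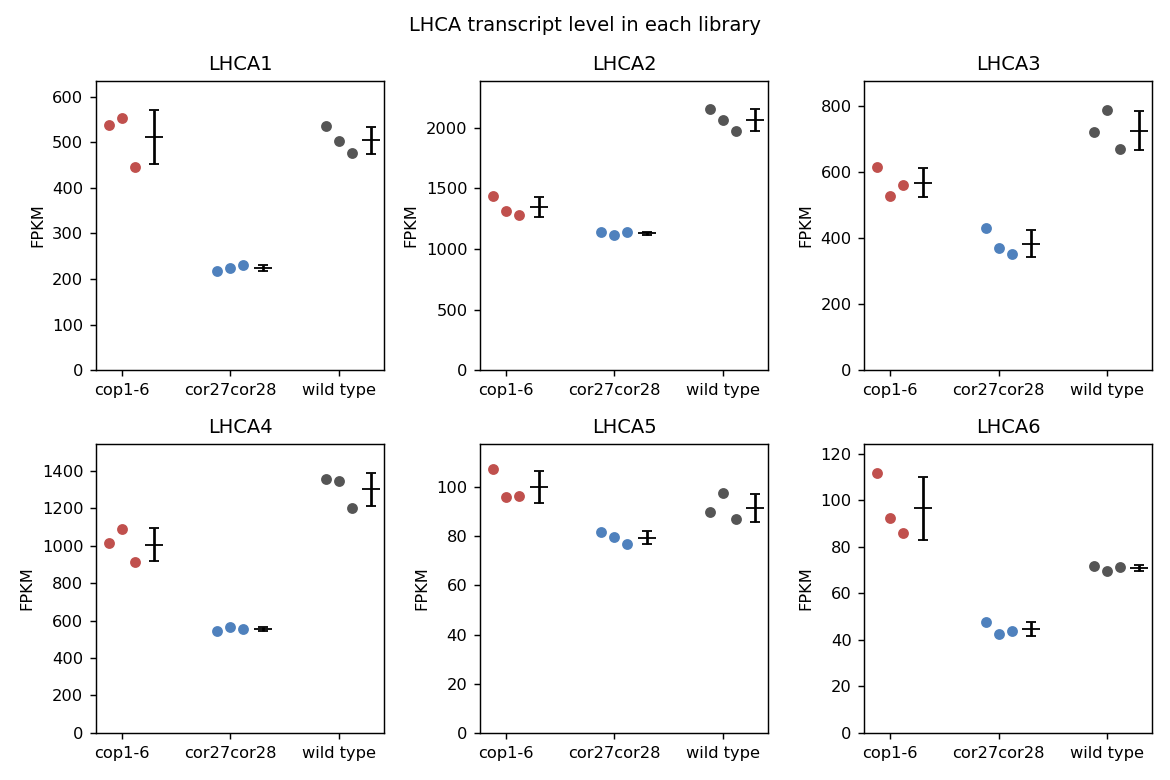
Transcript level in FPKM (vertical axis, linear, starting at 0, 1 scale per gene) of the 6 LHCA genes in the 3 libraries of each genotype. Points are libraries and lines are group means with the SD. The cor27cor28 libraries lie below the wild-type libraries in all 6 genes, while the cop1-6 libraries lie below them for LHCA2, LHCA3 and LHCA4 and above them for LHCA6.

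The first comparison sets cor27cor28 against wild type and addresses which antenna transcripts differ when COR27 and COR28 are mutated. Of the 6 genes, 5 fell and 0 rose (limma, adjusted p under 0.05 over all genes tested), where 21.9% of all 17075 tested genes were called, 7.29% as lower and 14.6% as higher. The median log2 fold change of the 6 was -0.89, against 0.10 over all tested genes. In all 6 genes the cor27cor28 libraries lay below the wild-type libraries without overlap, as they did in 13.4% of all tested genes, while they lay above in 28%. Log2 fold changes are differences of log2(FPKM + 1), and those of the low members are slightly understated. Values written as -fold are ratios of group mean FPKM with nothing added.

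LHCA4, which carries red-shifted chlorophylls, had 546.9, 564 and 553 FPKM in cor27cor28, against 1358, 1346 and 1201 FPKM in wild type. Every cor27cor28 library lay far below every wild-type library. LHCA4 fell 2.35-fold (log2 fold change -1.23 ± 0.08 SE, limma adjusted p = 1.63e-05). Its partner LHCA1 had 218, 225 and 231 FPKM in cor27cor28, against 535.5, 503 and 476 FPKM in wild type. The groups were again clearly apart, and LHCA1 fell 2.25-fold (log2 fold change -1.16 ± 0.09 SE, limma adjusted p = 2.7e-05).

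For the other heterodimer, LHCA2 had 1137, 1116 and 1138 FPKM in cor27cor28, against 2156, 2062 and 1976 FPKM in wild type. The cor27cor28 libraries were close together and all lower. LHCA2 fell 1.83-fold (log2 fold change -0.87 ± 0.08 SE, limma adjusted p = 8.78e-05). LHCA3 had 430.3, 369 and 352 FPKM in cor27cor28, against 721, 789 and 669 FPKM in wild type. Its libraries were more spread but did not overlap, and LHCA3 fell 1.89-fold (log2 fold change -0.92 ± 0.10 SE, limma adjusted p = 0.000157).

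The minor members split. LHCA6 had 47.9, 42.5 and 43.6 FPKM in cor27cor28, against 71.8, 69.7 and 71.5 FPKM in wild type. It fell 1.59-fold with no overlap (log2 fold change -0.66 ± 0.09 SE, limma adjusted p = 0.000871). LHCA5 had 81.9, 79.8 and 76.8 FPKM in cor27cor28, against 89.9, 97.8 and 87.0 FPKM in wild type. Its cor27cor28 libraries were all lower, but the difference of -0.20 on the log2 scale (95% interval -0.36 to -0.04, limma adjusted p = 0.0739) did not pass. With the libraries rescaled by the median of ratios, LHCA5 did pass as lower (log2 fold change -0.33, limma adjusted p = 0.0194). The other 5 calls held under both rescalings and with any 1 library left out. Markers of green tissue, 5 genes for enzymes of carbon fixation, moved with the antenna genes here: 5 of 5 fell, where 7.29% of all tested genes were called lower. The count was 4 of 5 with equal totals and 3 of 5 with no filter. It was also 3 of 5 without cor27cor28 replicate 2, cor27cor28 replicate 3 or wild-type replicate 1. The summed FPKM of these markers was 13006 to 14411 in cor27cor28, against 18767 to 19979.9 in wild type. Their part in the LHCA differences was not tested.

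The second comparison sets cop1-6 against wild type and addresses the antenna transcripts of seedlings with a COP1 mutation. Of the 6 genes, 1 rose and 3 fell, where 49.5% of all tested genes were called, 10.9% as higher and 38.6% as lower. The median log2 fold change was -0.17, against -0.21 over all tested genes. In 3 genes the cop1-6 libraries lay below the wild-type libraries without overlap and in 1 above, as they did in 44.3% and 12.9% of all tested genes. The members called lower were near the share of all genes in number, and the members differed from each other in direction.

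LHCA2 had 1437.5, 1313 and 1281 FPKM in cop1-6, against 2156, 2062 and 1976 FPKM in wild type. Its cop1-6 libraries were all well below wild type. LHCA2 fell 1.54-fold (log2 fold change -0.62 ± 0.08 SE, limma adjusted p = 4.15e-05). LHCA3 had 614, 527 and 561 FPKM in cop1-6, against 721, 789 and 669 FPKM in wild type. The groups were closer for LHCA3 but did not overlap. LHCA3 fell 1.28-fold (log2 fold change -0.36 ± 0.10 SE, limma adjusted p = 0.00876).

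LHCA4 had 1013, 1092 and 916 FPKM in cop1-6, against 1358, 1346 and 1201 FPKM in wild type, and fell 1.29-fold (log2 fold change -0.37 ± 0.08 SE, limma adjusted p = 0.00315). The groups did not overlap. LHCA1, its partner in the antenna, had 537, 553 and 445 FPKM in cop1-6, against 535.5, 503 and 476 FPKM in wild type. These groups overlapped, and the difference of 0.01 on the log2 scale had a 95% interval of -0.18 to 0.21 (limma adjusted p = 0.905).

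LHCA6, the least abundant member, had 112, 92.3 and 85.8 FPKM in cop1-6, against 71.8, 69.7 and 71.5 FPKM in wild type. All cop1-6 libraries were higher, and LHCA6 rose 1.36-fold (log2 fold change 0.43 ± 0.09 SE, limma adjusted p = 0.00233). LHCA5 had 107, 96.1 and 96.3 FPKM in cop1-6, against 89.9, 97.8 and 87.0 FPKM in wild type. The groups overlapped, and the difference of 0.12 on the log2 scale had a 95% interval of -0.04 to 0.29 (limma adjusted p = 0.185).

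Scaling between libraries bore on this comparison. With median-of-ratios scaling, LHCA1, LHCA5 and LHCA6 were called higher (log2 fold changes 0.28, 0.38 and 0.69), LHCA2 was called lower (-0.36), and LHCA3 and LHCA4 lost their calls at -0.09 and -0.11. With equal totals, LHCA5 and LHCA6 were called higher (0.32 and 0.62), LHCA2 was called lower (-0.43), and LHCA3 and LHCA4 lost their calls at -0.16 and -0.18.

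**Figure D2:**
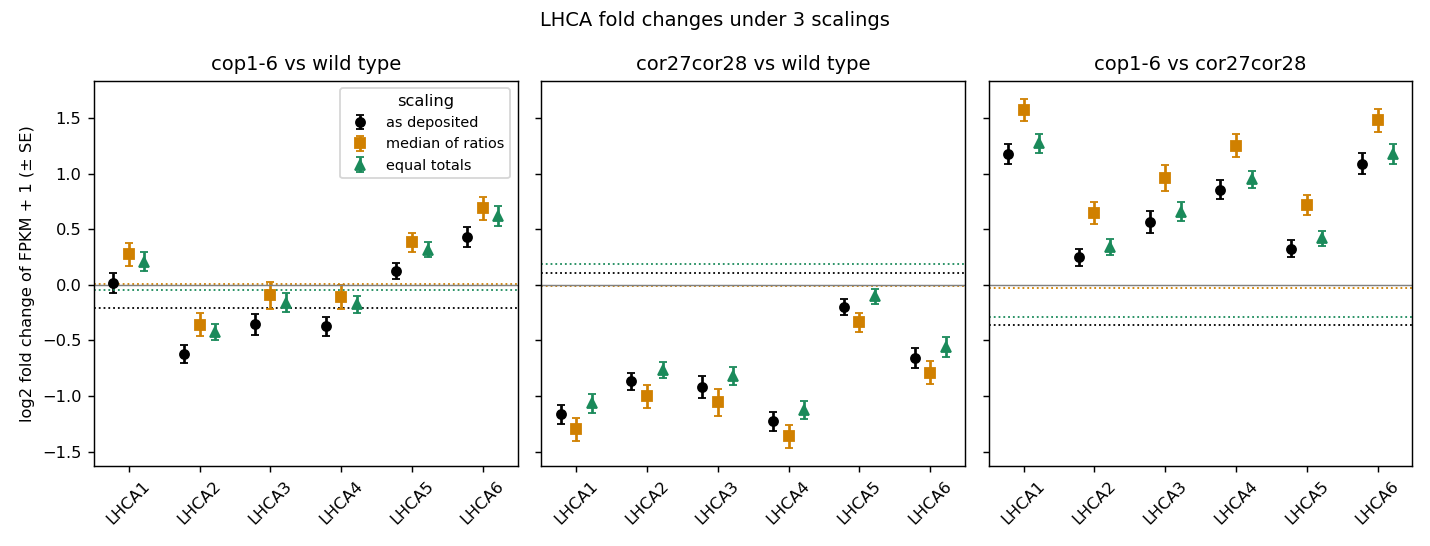
Log2 fold change with its SE (vertical axis) of each LHCA gene in the 3 comparisons, with the deposited values and with the 2 other scalings. Dotted lines give the median of all tested genes under each scaling. In cop1-6 against wild type the deposited values of LHCA3 and LHCA4 sit at -0.36 and -0.37 and move to -0.09 and -0.11 with median-of-ratios scaling, while all 6 genes stay above 0 in cop1-6 against cor27cor28 and below 0 in cor27cor28 against wild type.

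The third comparison sets cop1-6 against cor27cor28. All 6 genes were higher in cop1-6, where 65.8% of all tested genes were called, 9.19% as higher and 56.6% as lower, and the median log2 fold change was 0.71, against -0.36 over all tested genes. LHCA1, whose libraries are given above, was 2.28-fold higher in cop1-6 (limma adjusted p = 7.89e-07) and LHCA6 2.16-fold higher (limma adjusted p = 2.46e-06). LHCA4 was 1.82-fold higher, LHCA3 1.48-fold, LHCA5 1.26-fold and LHCA2 1.19-fold. In all 6 genes the cop1-6 libraries lay above the cor27cor28 libraries without overlap, which 9.94% of all tested genes did, while 59.8% lay below. The smallest difference, that of LHCA2 (log2 fold change 0.25 ± 0.08 SE, limma adjusted p = 0.0153), lost its call with no filter on low values (0.25, adjusted p = 0.0518), without cop1-6 replicate 1 (0.20, adjusted p = 0.0609) and without cor27cor28 replicate 2 (0.24, adjusted p = 0.058). All 6 kept their calls under both rescalings.

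Ratios of members within 1 library do not depend on the scaling between libraries. LHCA1 over LHCA4, the partners of a heterodimer, was -0.92, -0.98 and -1.04 on the log2 scale in cop1-6, -1.33, -1.33 and -1.26 in cor27cor28 and -1.34, -1.42 and -1.33 in wild type. LHCA1 was thus closer to LHCA4 in every cop1-6 library than in any other library, by 0.39 ± 0.05 (SE) against wild type. In cor27cor28 the same ratio exceeded wild type by 0.06 ± 0.04 (SE).

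LHCA2 over LHCA3, the other partners, was 1.23, 1.32 and 1.19 in cop1-6, 1.401, 1.60 and 1.69 in cor27cor28 and 1.58, 1.39 and 1.56 in wild type. The ratio was lower in every cop1-6 library, by 0.27 against wild type, and overlapped between cor27cor28 and wild type. LHCA1 over LHCA2 stood 0.64 higher in cop1-6 than in wild type and 0.30 lower in cor27cor28 than in wild type. LHCA5 over LHCA6 was 0.31 lower in cop1-6 than in wild type and 0.47 higher in cor27cor28 than in wild type. In each comparison, 13 of the 15 member ratios had libraries that did not overlap. The share among pairs of other genes was not computed, and the 15 ratios share members. This count is therefore a description and is not read as particular to the LHCA genes. With 3 libraries against 3, the exact 2-sided permutation test cannot go below p = 0.1, and over the 45 ratios tested the smallest adjusted p was 0.115, so no ratio could pass.

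**Figure D3:**
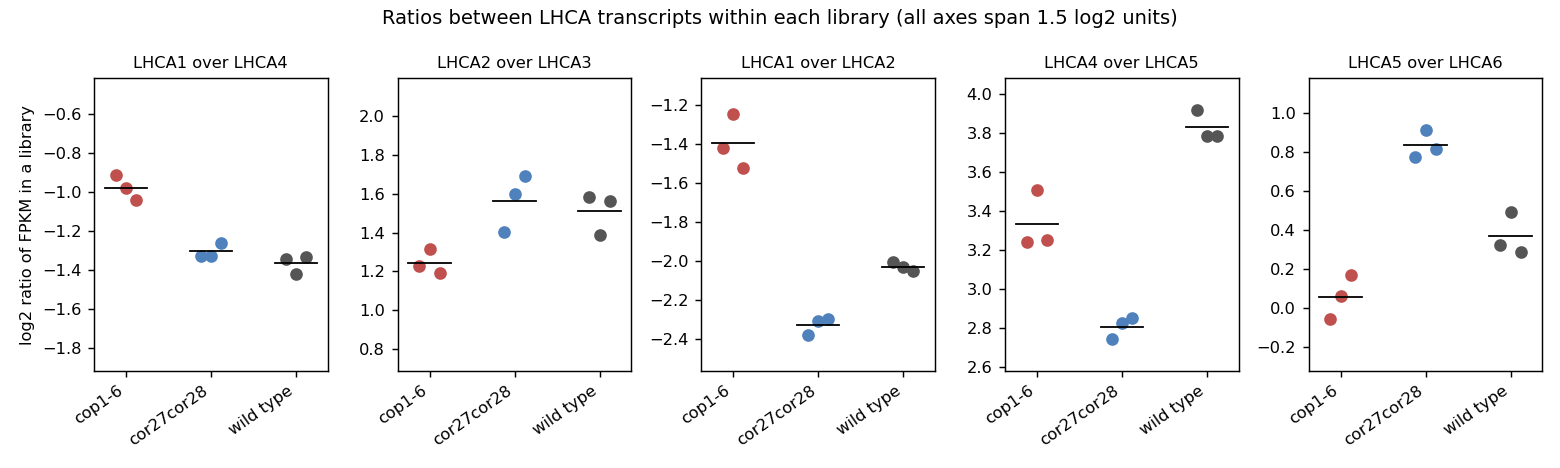
Log2 ratio of FPKM between 2 LHCA genes within a library (vertical axis, each panel spanning the same range) for 5 pairs, with points for libraries and lines for group means. LHCA1 over LHCA4 averages -0.98 in cop1-6, -1.31 in cor27cor28 and -1.36 in wild type, and LHCA5 over LHCA6 averages 0.06 in cop1-6, 0.83 in cor27cor28 and 0.37 in wild type.

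Genes of the structures that LHCA proteins bind to were read from the same fit. The mean log2 level of LHCA1 to LHCA4 stood -0.30 ± 0.03 from the mean of the 12 photosystem I core genes in cop1-6, -0.67 ± 0.03 in cor27cor28 and -0.34 ± 0.03 in wild type (SD, n = 3 each). The main antenna genes were therefore lower relative to the core in cor27cor28 and about level with wild type in cop1-6. Against the 14 LHCB genes, which encode the photosystem II antenna, the same value was 0.36 ± 0.01 in cop1-6, 0.55 ± 0.04 in cor27cor28 and 0.56 ± 0.10 in wild type. As summed FPKM the log2 ratio was -2.28 ± 0.07 in cop1-6, -2.515 ± 0.08 in cor27cor28 and -2.55 ± 0.13 in wild type. The place of cop1-6 thus changed from lowest to highest with the measure, so no direction against LHCB is read from it.

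Of the 12 nuclear photosystem I core genes, 12 fell in cor27cor28 relative to wild type, where 7.29% of all tested genes were called lower. The median log2 fold change of the 12 was -0.70. PSAL, on the side of the core where mobile photosystem II antenna docks, fell by 1.06 on the log2 scale (limma adjusted p = 2.7e-05). PSAG, a membrane subunit that contacts the antenna belt, fell by 0.94 (limma adjusted p = 7.76e-05). In cop1-6 relative to wild type 9 core genes fell and 0 rose, where 38.6% of all tested genes were called lower. The median was -0.38, against -0.21 over all tested genes. Both rescalings left 3 core genes that fell, where 3493 of 17043 (median of ratios) and 4028 of 17067 (equal totals) tested genes were called lower. PSAE2, whose product helps to dock ferredoxin, averaged 327 ± 17.0 FPKM in cop1-6 and 555 ± 81.5 FPKM in wild type (SD, n = 3 each, log2 fold change -0.75, limma adjusted p = 7.65e-05). Between the mutants, 8 of the 12 were higher in cop1-6 and 0 lower, where 9.19% of all tested genes were called higher and 56.6% lower.

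Of 17 nuclear genes of the NDH complex, the partner of LHCA5 and LHCA6, 14 fell in cor27cor28 relative to wild type. The share called lower over all tested genes was 7.29%, and the median log2 fold change of the 17 was -0.44. Median-of-ratios scaling gave 15 that fell, where 2122 of 17043 tested genes were called lower. Equal totals gave 12, where 841 of 17067 were called lower. The number was 12 with the replicate block or no variance trend, and 13 with no filter. NDHU averaged 57.0 ± 1.75 FPKM in cor27cor28 and 91.3 ± 5.85 FPKM in wild type (SD, n = 3 each, limma adjusted p = 0.000442). In cop1-6 relative to wild type 7 rose and 2 fell, with a median of 0.15, where 10.9% of all tested genes were called higher and 38.6% lower. PNSB2, a subunit of a subcomplex that the chloroplast complex has beyond its bacterial relatives, averaged 76.3 ± 8.17 FPKM in cop1-6 and 38.5 ± 2.04 FPKM in wild type (SD, n = 3 each, log2 fold change 0.96, limma adjusted p = 2.6e-06). NDHT rose by 0.79 and PNSB1 by 0.67 on the log2 scale in cop1-6, and NDHO fell by 0.49. Median-of-ratios scaling gave 12 that rose and 0 that fell, with NDHO no longer called at -0.22, and equal totals gave 11 that rose and 1 that fell. Over all tested genes these scalings called 3826 of 17043 and 2993 of 17067 higher. Leaving out cop1-6 replicate 1 gave 4 that rose and 2 that fell. Between the mutants, 13 of 17 were higher in cop1-6 and 0 lower, where 9.19% of all tested genes were called higher and 56.6% lower.

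The LHCB genes moved over a wider span than the LHCA genes. In cor27cor28 13 of 14 fell and 0 rose relative to wild type, where 7.29% of all tested genes were called lower. Their median log2 fold change was -1.03. In cop1-6 5 rose and 9 fell relative to wild type, where 10.9% of all tested genes were called higher and 38.6% lower. The number that fell was 4 with median-of-ratios scaling, where 3493 of 17043 tested genes were called lower. It was 7 with equal totals, where 4028 of 17067 were called lower. LHCB4.3 rose by 2.201 and LHCB1.4 fell by 2.67 on the log2 scale. LHCB1 and LHCB2 copies are near-identical and their single values are uncertain.

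**Figure D4:**
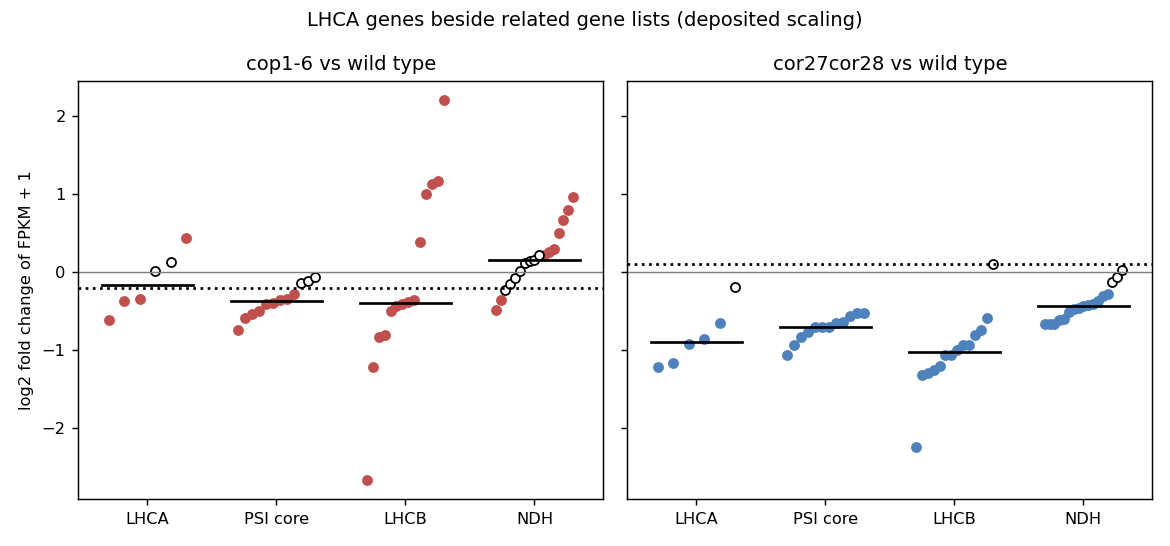
Log2 fold change (vertical axis) of each gene in the LHCA, photosystem I core, LHCB and NDH groups for each mutant against wild type. Filled points passed the test, open points did not, bars are medians of the groups and dotted lines the median of all tested genes. In cor27cor28 against wild type the medians are -0.89 for LHCA, -0.70 for the core, -1.03 for LHCB and -0.44 for NDH genes, while that of all tested genes is 0.10.

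Counts for the handling of antenna proteins depended on the setting. Of 5 genes that deliver antenna proteins to the thylakoid, 1 fell in cor27cor28 relative to wild type, the insertase gene ALB3 (log2 fold change -0.31, limma adjusted p = 0.011), where 7.29% of all tested genes were called lower. ALB3 passed as lower in every setting tried, and the number that fell was 3 with median-of-ratios scaling, 3 with only the 6 libraries of the comparison, 3 without cop1-6 replicate 2, and 2 with the replicate block or without cor27cor28 replicate 1. With equal totals 1 fell and 1 rose. In cop1-6 2 of the 5 fell relative to wild type, ALB3 (-0.29) and CPSRP43 (-0.30), whose product binds antenna proteins in the stroma, where 38.6% of all tested genes were called lower. Both lost their calls under both rescalings, ALB3 at -0.03 (median of ratios) and -0.09 (equal totals) and CPSRP43 at -0.04 and -0.11. Other genes of the list were then called higher, 2 under the first rescaling and 1 under the second.

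Of 6 photosystem I assembly genes, limma called 0 in cor27cor28 relative to wild type, with 1 at an unadjusted p under 0.05, and 2 were called higher with equal totals. Over all tested genes 21.9% were called, and 4322 of 17067 were called higher with equal totals. In cop1-6 relative to wild type PSA2 rose by 0.47 on the log2 scale and was called higher in every setting tried. Under each rescaling 4 of the 6 were called higher. Over all tested genes 10.9% were called higher with the deposited values, 3826 of 17043 with median of ratios and 2993 of 17067 with equal totals. PPD1 was called lower at -0.40 (limma adjusted p = 0.0431), a call lost under both rescalings and without any 1 of wild-type replicates 1 and 3, cop1-6 replicates 2 and 3 and cor27cor28 replicate 2.

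GLK1 and GLK2, transcription factors that activate antenna genes, averaged 21.4 ± 0.99 and 63.8 ± 5.08 FPKM in cop1-6, 30.4 ± 0.14 and 86.4 ± 2.88 FPKM in cor27cor28, and 27.01 ± 2.99 and 84.2 ± 1.38 FPKM in wild type (SD, n = 3 each). Both fell in cop1-6 relative to wild type with the deposited values (log2 fold changes -0.31 and -0.40), and both lost their calls with median-of-ratios scaling (-0.06 and -0.14). GLK1 also lost its call with equal totals (-0.13) and without wild-type replicate 3 (-0.25), while GLK2 kept it. Neither passed in cor27cor28 (0.17 and 0.04, limma adjusted p = 0.182 and 0.751). STN7, the kinase that phosphorylates photosystem II antenna in state transitions, rose by 0.51 in cop1-6 relative to wild type and was called higher in every setting tried. TAP38, the opposing phosphatase, fell by 0.33 with the deposited values and lost its call with median-of-ratios scaling (-0.07), with equal totals (-0.14) and without cop1-6 replicate 3 (-0.24). In cor27cor28 STN7 stood at 0.09 and TAP38 at -0.15, and neither passed.

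The genes closest to the members over the 9 libraries were ranked by the root mean square difference of centred log2 levels among 8192 candidates. Nearest to LHCA1 to LHCA4 were PSAL (0.05), LHCB6 (0.07), LHCB3 (0.09), LHCB5 (0.09) and AT2G17300 (0.11), where the median candidate stood at 0.56. Nearest to LHCA5 were PETC, the Rieske protein of the cytochrome b6f complex, with AT1G32470 and AT5G51110, each at 0.05 against a median of 0.34. Nearest to LHCA6 were AT1G52870 (0.08) and the photorespiration genes AGT and GOX1 (0.10 each), against a median of 0.62. AGT averaged 763 ± 27.01 FPKM in cop1-6, 367 ± 21.1 FPKM in cor27cor28 and 546.1 ± 36.9 FPKM in wild type (SD, n = 3 each). These ranks describe 9 libraries of 3 genotypes that share their scaling and are no test.

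Markers of other seedling tissues also differed between genotypes. The 5 green tissue markers summed to 19280.0 to 21704 FPKM in cop1-6, against the wild-type range given above. Of these, 4 rose in cop1-6 relative to wild type, where 10.9% of all tested genes were called higher. The count stayed at 4 under both rescalings and was 3 with no filter or without cop1-6 replicate 1. The sum of 9 root markers was 9.36 to 12.9 in cop1-6, 21.8 to 29.9 in cor27cor28 and 36.4 to 48.6 in wild type, with CASP5 and EXPA7 listed at 0 in every cop1-6 library. Of the 6 root markers that passed the filter, 5 fell in cop1-6 and 3 in cor27cor28 relative to wild type. The shares of all tested genes called lower were 38.6% and 7.29%. The 3 became 1 with a pseudocount of 0.1 and 4 with median-of-ratios scaling. They became 2 with the replicate block or without cor27cor28 replicate 2, cor27cor28 replicate 3 or wild-type replicate 2. The sum of 9 seed markers was 14.3 to 34.3 in cop1-6, 0.39 to 2.99 in cor27cor28 and 0.307 to 5.15 in wild type, with SESA1, SESA2 and SESA4 listed at 0 in every cor27cor28 and wild-type library and CRU2, CRU3 and SESA3 in every wild-type library. The part of the makeup of the tissue in the LHCA differences was not tested.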

How the data were processed

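Gene expression was measured by RNA sequencing of 9 seedling libraries, 3 each of cop1-6, cor27cor28 and wild type. The authors deposited 1 table per library whose values are FPKM per gene, per the file headers. Per the submitters' processing notes the build was TAIR10 and the tools included DESeq 1.18.0, Cufflinks, HISAT2 2.2.1.0, Bowtie2, TopHat and Trimmomatic 0.36. Their role in these values is not stated there. No counts were used and depth is unknown, so no count test was run and no counting interval is given. The 13 entries without a gene name, 0.000197% to 0.00203% of a library's sum, were left out.

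Values were tested as log2(FPKM + 1) with limma 3.58.1 in R 4.3.3, with a variance trend, 3 groups and no covariate, on the 17075 genes that reached 1 FPKM in 3 or more libraries. P-values were adjusted by Benjamini-Hochberg over all tested genes and called under 0.05. The procedure was tested on simulated data with independent noise per gene and no shift of scaling between genotypes. That test therefore does not bear on how scaling moves the calls. Alternatives were a pseudocount of 0.1, no filter, median-of-ratios scaling, equal totals, no variance trend, only the 6 libraries of a comparison, a replicate block, and leaving out each library. Gene positions, exons and sequences came from TAIR10.1, where all 26984 named genes matched by locus tag. Named genes were the 6 members, up to 3 called genes with the lowest adjusted p per list and comparison, and GLK1, GLK2, STN7 and TAP38; some were summarised only as counts. The members and lists were chosen with earlier results of these data known.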

Additional observations from a re-analysis of the deposited data

How the results depend on the processing

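In cop1-6 against wild type, 1 LHCA gene was called higher and 3 lower with the deposited values. Median-of-ratios scaling gave 3 higher and 1 lower, and equal totals gave 2 higher and 1 lower. The filter ran on the rescaled values, leaving 17043 and 17067 genes, and the median of all tested genes was 0.01 and -0.05, against -0.21 over 17075. LHCA1 in that comparison lay between -0.045 and 0.11 on the log2 scale with 1 library left out and was never called. With summed FPKM, LHCA1 to LHCA4 over the photosystem I core differed by -0.038 in cop1-6 against wild type, -0.26 for cor27cor28 against it and 0.22 for cop1-6 against cor27cor28, where mean log2 levels gave 0.04, -0.32 and 0.37; the cause was not tested. The replicate block left the LHCA calls of those 3 comparisons at 4, 5 and 6 and gave 7921, 2967 and 10691 calls over all genes, against 8448, 3738 and 11235 without it. Same-numbered deviations correlated at -0.17 to 0.12 and others at -0.16 to 0.21, and the own number was best in 4 of 18 cases. This gave no sign of pairing by number but cannot exclude a weak one, because each group holds only 3 libraries. Over all genes, cor27cor28 against wild type had 2493 higher and 1245 lower, 1255 and 2122 (median of ratios), 4322 and 841 (equal totals), and 1834 or 2123 in all without cor27cor28 replicate 2 or 3. Those of cop1-6 against wild type were 1865 and 6583, 3826 and 3493 (median of ratios), and 2993 and 4028 (equal totals). Between the mutants, 1569 and 9666 became 3302 and 2397 (median of ratios). Depth is unknown, and 3 libraries a genotype limit small differences such as those of LHCA5.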
